A study of Mus musculus with 2 samples.

Results

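The miR-103/107 family of the mouse consists of 3 microRNA genes, Mir103-1, Mir103-2 and Mir107, and each of them lies inside a gene for a pantothenate kinase. The members were taken as the rows whose Ensembl identifiers carry these 3 symbols in GENCODE annotation M21, out of 2202 miRNA genes listed in the tables. All 3 were found. Their levels were measured by microRNA-seq, which sequences small RNAs, here fragments below 30 nt. The total RNA came from hippocampal tissue of B6CASTF1/J males, 2 months of age, which are hybrids from crossing C57BL/6J with CAST/EiJ. There was 1 group, with no genetic change or treatment named in the labels, and it held 2 biological replicates. The labels give each replicate its own biosample but enter the same donor for both, and whether an SD below also reflects variation from animal to animal is not given. No conditions could be compared. The values below compare the members with each other, with related genes and between the libraries.

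MicroRNAs are cut from hairpin precursors, and 1 strand of the resulting duplex guides silencing complexes to messenger RNAs that pair with its seed, bases 2 to 8. Pantothenate kinases carry out the rate-limiting step of coenzyme A synthesis, and the microRNAs in their introns are known from work on insulin sensitivity and lipid metabolism, on repression of Dicer, and on brain, where miR-107 was linked to the messenger RNA of the beta-secretase Bace1. The guide strand of the family comes from the 3p arm of the hairpin. Each gene count below holds only the reads assigned to that gene, from either arm, and the arms are not given apart.

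The guide strands are shown because they decide which reads can be told apart. They come from RefSeq (GRCm38.p6), which held all 3 members at the same coordinates as annotation M21. Capitals mark the seed.

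miR-103-3p (from Mir103-1 and from Mir103-2): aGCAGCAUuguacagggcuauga

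miR-107-3p (from Mir107): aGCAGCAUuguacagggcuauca

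The forms differ at 1 of 23 bases, G22C, counted from 1 at the 5′ end with the base of miR-103-3p given first. Their first 21 bases are identical. Of the 2202 listed genes, 3 held the first 21 bases of miR-107-3p, namely the members themselves, and only Mir107 held the first 22. The whole of miR-103-3p was held by 2 genes, Mir103-1 and Mir103-2, and by no other listed gene. A read of the whole miR-103-3p therefore has 2 possible genes of origin, and a read of miR-107-3p has 1 only if it reaches base 22.

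The passenger arms carry other differences. They are shown because they include the base that separates Mir103-1 from Mir103-2, with the seed positions again in capitals.

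miR-103-1-5p: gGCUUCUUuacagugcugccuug

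miR-103-2-5p: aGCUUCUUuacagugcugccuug

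miR-107-5p: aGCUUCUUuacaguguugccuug

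From miR-103-1-5p to miR-103-2-5p the single change is G1A, at the first base. From miR-103-2-5p to miR-107-5p it is C16U. Each whole 5p form was held by 1 listed gene. Without their first base, the forms of Mir103-1 and Mir103-2 (bases 2 to 23) were held by both of these genes, while bases 2 to 23 of miR-107-5p were held by Mir107 alone.

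The hairpins show where the copies part beyond the mature forms. Capitals mark the 3p mature form.

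Mir103-1: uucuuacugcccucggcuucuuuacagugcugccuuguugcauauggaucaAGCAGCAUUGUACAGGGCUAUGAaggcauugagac

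Mir103-2: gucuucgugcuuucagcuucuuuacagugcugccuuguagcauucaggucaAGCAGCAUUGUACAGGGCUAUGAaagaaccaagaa

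Mir107: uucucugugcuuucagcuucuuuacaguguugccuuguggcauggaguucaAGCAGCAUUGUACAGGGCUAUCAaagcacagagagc

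Mir103-1 and Mir103-2 share an exact run of 27 nt, which holds the 23 bases of the mature form, 3 bases before it and 1 base after it. Mir107 shares a run of 24 nt with each of them, made of the same 3 bases and the first 21 of the mature form. In a global alignment the hairpins of Mir103-1 and Mir103-2 were identical in 80.2% of columns. Mir103-2 and Mir107 were identical in 83.9% of columns, and Mir103-1 and Mir107 in 80.5%.

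The position of the members in their hosts was the same. Mir103-1 (ENSMUSG00000065553.1) lies on the plus strand of chromosome 11, from 35782396 to 35782481 in mm10, in intron 5 of Pank3. Mir103-2 (ENSMUSG00000065563.1) lies on the plus strand of chromosome 2, from 131288052 to 131288137, in intron 5 of Pank2. Mir107 (ENSMUSG00000065594.1) lies on the minus strand of chromosome 19, from 34820687 to 34820773, in intron 5 of Pank1. Each host transcript used, the principal isoform of the annotation, has 6 introns and runs on the same strand as its microRNA. The microRNA gene begins 688 nt after exon 5 in Pank3, 454 nt after it in Pank2 and 326 nt after it in Pank1. The introns differ more, at 1740, 5801 and 7282 nt. No exon of any annotated transcript of these hosts (1 of Pank3, 8 of Pank2, 4 of Pank1) overlaps a member. The messenger RNAs of the hosts were not measured here.

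**Figure D1:**
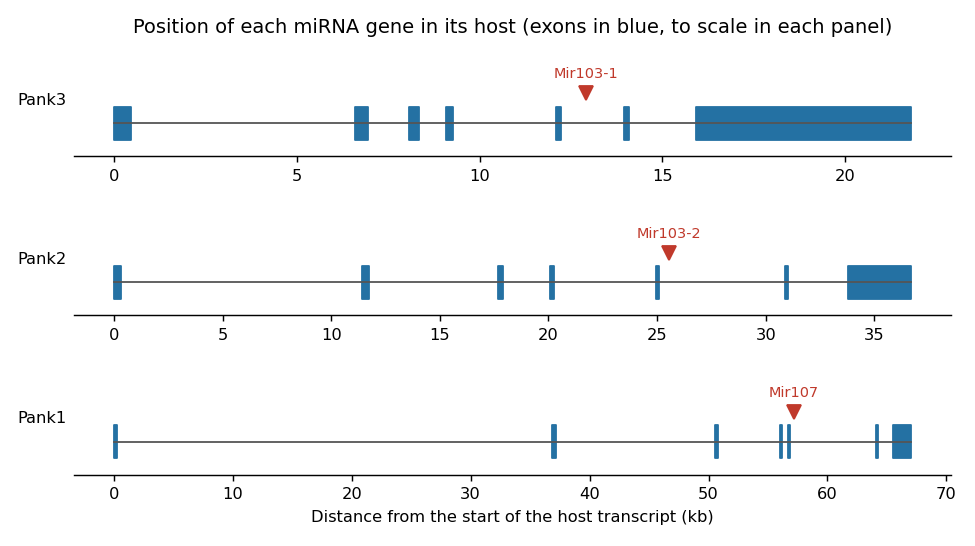
Exons (blue) and introns (line) of Pank3, Pank2 and Pank1 against the distance in kb from the start of the host's principal transcript, with a red triangle at each miRNA gene. In all 3 panels the triangle stands in intron 5, nearer to the exon before it than to the exon after it.

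Replicate 1 held 2322520 counts on miRNA genes and replicate 2 held 3414105. Reads that mapped to several places made up 42.6% and 46.0% of the libraries. Every read sat in a single row of a table, so these reads are in no gene's count. The levels below are therefore levels of reads placed on 1 locus, and how many of the multimapping reads were miR-103-3p is not given by the tables. CPM is the count of a gene in a library scaled to 1000000 counts on miRNA genes. Detection was set at a minimum of 2 CPM in each library, which 401 genes reached. A count of 0 allows up to 3 counts, or 1.29 CPM in replicate 1 and 0.879 CPM in replicate 2. Of the neuronal markers listed, 10 of 12 were detected, with a sum of 33413 and 48072 CPM. The multi-locus Mir124a-1, Mir124a-2 and Mir124a-3, which are on that neuronal list, had 7 and 16 counts together. Lists for oligodendrocytes, microglia and leukocytes, endothelium, mural cells, erythrocytes and choroid plexus summed to means between 736 and 13681 CPM. Those for liver and striated muscle summed to 46.4 and 39.6 CPM, with 4 of 5 muscle markers at 0 counts in both libraries. These 4 were Mir1a-1, Mir1a-2, Mir133a-1 and Mir133a-2, while Mir206 had 128 and 82 counts. Where copies of a gene share a mature form, reads that map to several of them are in no gene's count, so 0 counts do not show absence. In tissue RNA, fewer cells of a type and less RNA per cell cannot be told apart.

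Nearly all placed reads of the family fell on Mir107. It had 9914 counts in replicate 1, or 4269 CPM (Wilson 95% interval 4186 to 4353), and 3485 counts in replicate 2, or 1021 CPM (987 to 1055). The mean was 2645 ± 2297 CPM (SD, n = 2). Mir107 was the most abundant member in both libraries, but its SD was close to its mean.

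Mir103-2 had 59 counts in replicate 1, or 25.4 CPM (19.7 to 32.8), and 36 counts in replicate 2, or 10.5 CPM (7.62 to 14.6). Its mean was 17.97 ± 10.5 CPM (SD, n = 2). This gene, in Pank2, passed the detection threshold in both libraries.

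Mir103-1 had 14 counts in replicate 1, or 6.03 CPM (3.59 to 10.1), and 2 counts in replicate 2, or 0.586 CPM (0.161 to 2.14). Its mean was 3.31 ± 3.85 CPM (SD, n = 2). The gene in Pank3 thus stayed below the detection threshold in replicate 2, where its count was under the 3 counts that a count of 0 allows. It was the only member that was not detected.

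Within each library the order was Mir107, Mir103-2, Mir103-1. The ratio of Mir107 to Mir103-2 was 168 in replicate 1 (exact 95% counting interval 130 to 221) and 96.8 in replicate 2 (69.8 to 138). The ratio of Mir103-2 to Mir103-1 was 4.21 (2.32 to 8.17) and 18.0 (4.63 to 154). Ratios were called larger than the spread between replicates when both libraries lay on the same side of 1 and the mean log2 ratio exceeded 2 SD. For Mir107 over Mir103-2 the mean log2 ratio was 6.99 ± 0.56 (SD, n = 2), well past that limit. For Mir103-2 over Mir103-1 it was 3.12 ± 1.48, just above 2 SD (2.96), and it rested on 2 counts of Mir103-1 in replicate 2. No p is given for these ratios, since the smallest two-sided p that sign flips of 2 libraries can give is 0.5.

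As shares of the family's placed counts, Mir107 held 99.3% of 9987 in replicate 1 and 98.9% of 3523 in replicate 2. Mir103-2 held 0.591% (Wilson 95% interval 0.458 to 0.761) and 1.02% (0.739 to 1.41). Mir103-1 held 0.140% (0.0835 to 0.235) and 0.0568% (0.0156 to 0.207). The sum of the family was 4300 CPM in replicate 1 and 1032 CPM in replicate 2, or 0.430% and 0.103% of all miRNA-gene counts. Both Mir103 genes together had 73 and 38 counts. The multimapping rows held 2743569 and 4604517 reads, so the counts of the Mir103 genes are no measure of the amount of miR-103-3p. The settings for mismatches and multimapping reads are not given in the sources used here. Whether reads of miR-107-3p that end before base 22 were counted is therefore not known, and the level and share of Mir107 cover only the reads that were placed.

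Among all 2202 genes, Mir107 ranked 41st in replicate 1 and 91st in replicate 2. Mir103-2 ranked 261st and 304th, and Mir103-1 333rd and 520th. Every member therefore stood lower in the order of replicate 2. None had a count in the opposite-strand column, and their counts in the unstranded column equalled those in the same-strand column. No other listed gene overlaps a member.

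**Figure D2:**
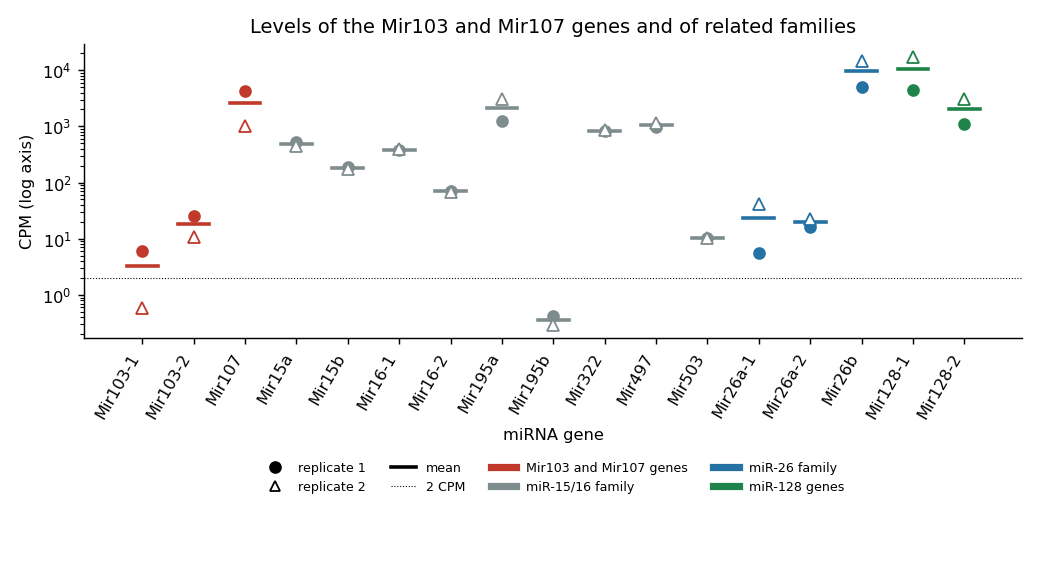
CPM on a log axis of each gene of the miR-103/107, miR-15/16 and miR-26 families and of the Mir128 genes in replicate 1 (filled circles) and replicate 2 (open triangles), with the mean as a bar and 2 CPM as a dotted line. Mir497b is left out because it was 0 in both libraries. Mir107 has a mean of 2645 CPM and the Mir103 genes have means of 17.97 and 3.31 CPM, and the circle is above the triangle for all 3.

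All 3 members were lower in replicate 2. Each gene detected in both libraries was compared between them by a two-sided exact binomial test on library sizes scaled by TMM, a normalization that trims extreme genes, with Benjamini-Hochberg adjustment over the 401 detected genes. The test compares 2 libraries of the same group, covers counting error only and says nothing of a condition. Mir107 was 4.26-fold lower in replicate 2 (exact 95% counting interval 4.09 to 4.42), a log2 difference of -2.09 with a log10 adjusted exact binomial p of -1378. Mir103-2 was 2.45-fold lower (1.59 to 3.82), a log2 difference of -1.29 with an adjusted exact binomial p of 5.90e-05. Both passed the threshold of 0.05, where 50.9% of detected genes passed in either direction and 22.7% were lower in replicate 2.

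Mir103-1, with 14 and 2 counts, was not in that test because it missed 2 CPM in replicate 2. Its ratio was 10.5-fold, with a counting interval from 2.41 to 94.9. When all 715 genes with a count were tested, its adjusted exact binomial p was 6.04e-04. The counting intervals of the folds for Mir103-2 and Mir103-1 overlap, and those for Mir103-2 and Mir107 do not.

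The size of the Mir107 difference was the 6th largest in the 401 detected genes, and that of Mir103-2 the 29th. Across detected genes the median size of a difference was 1.26-fold in either direction, and the median log2 difference was 0.03. A pass of the binomial test was thus common between these libraries, while 5 detected genes differed by more than Mir107. With a pair of libraries, such a difference cannot be assigned to either of them. Some markers of other cell types were also lower in replicate 2. The oligodendrocyte list had sums of 4367 and 2683 CPM in replicates 1 and 2. Its genes were Mir219a-2 at 2447 and 865 CPM, Mir338 at 1911 and 1811 CPM and Mir219a-1 at 9.04 and 7.03 CPM. Of these 3 genes, 2 were called lower in replicate 2 and none higher. The 2 were Mir219a-2, with a log2 difference of -1.53, and Mir338, with one of only -0.10. Over all 401 detected genes, 91 were called lower and 113 higher. Sums of the erythrocyte list were 1922 and 1149 CPM, with 1 of 3 genes called lower and 1 higher. The endothelial list, a single gene that was called lower, had 14889 and 12474 CPM. For the lists of mural cells (6456 and 6935 CPM), of microglia and leukocytes (1260 and 1598 CPM) and of choroid plexus (664 and 808 CPM) the sum was the higher in replicate 2. Both mural cell genes were called higher. Of 4 tested genes of microglia and leukocytes, 2 were called higher and 1, Mir146 (585 and 497 CPM), lower. In choroid plexus 1 of 2 tested genes was called higher and none lower, and the undetected Mir211 had 3.01 and 0.879 CPM. The neuronal list also had the higher sum in replicate 2 (33413 and 48072 CPM), with 4 of 10 tested genes called higher and 3 lower. Within these sums the Mir128 genes, which are treated again below, had 5631 and 19940 CPM. Mir137 (8697 and 12170 CPM) and Mir212 (258 and 296 CPM) were also called higher. Those called lower were Mir132 (11112 and 10719 CPM), Mir138-1 (4809 and 2633 CPM) and Mir138-2 (2687 and 2104 CPM). The part of these cell types in the difference of the miR-103/107 genes was not tested.

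**Figure D3:**
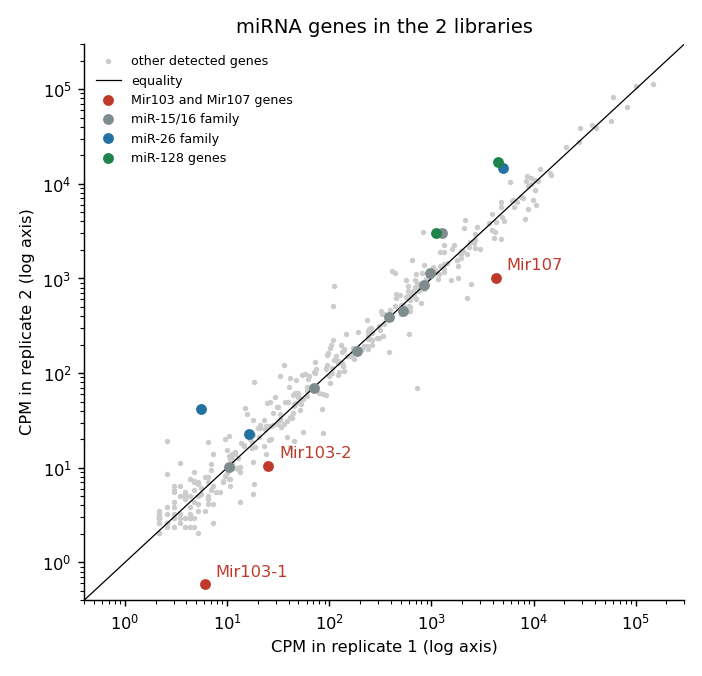
Log-log plot of detected miRNA genes, with CPM of replicate 1 on the x axis, CPM of replicate 2 on the y axis and the line of equality. Colour marks the miR-103/107 family (red) and the related families. Mir107 (4269 and 1021 CPM), Mir103-2 (25.4 and 10.5 CPM) and the undetected Mir103-1 (6.03 and 0.586 CPM) all lie below the line.

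The genes most like a member were sought among genes whose mean was at least 100 CPM, by the Euclidean distance between log2 CPM values in the 2 libraries. For Mir107 the nearest was Mir219a-2, known for its role in oligodendrocytes, at 2447 and 865 CPM and a distance of 0.84. Mir187 followed at 2987 and 2028 CPM (distance 1.12) and Mir298 at 2255 and 618 CPM (distance 1.17). All 3 were lower in replicate 2, but the rule itself leads to this, since it picks genes with levels near those of Mir107 in both libraries. The Mir103 genes have means far below that floor, so the rule could name no gene near them, and Mir7-1, the closest to both, lay at distances of 3.85 from Mir103-2 and 8.50 from Mir103-1. Likeness over 2 libraries is a weak description.

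Few mature entries held the seed of the family, and no other seed was counted for comparison. Of the 1738 mature entries in RefSeq, 3 (0.173%) had GCAGCAU at bases 2 to 8, and these were the 3p forms of the members. The first 6 bases of the 3p forms, AGCAGC, started at base 1 or 2 of 15 entries (0.863%). These were the 3 members, 9 genes of the miR-15/16 family, which regulates the cell cycle and apoptosis, and Mir6342, Mir6353 and Mir6419. In the miR-15/16 forms the core is shifted by 1 base, so the seeds overlap without being identical, as the following forms show with the seed in capitals.

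miR-107-3p: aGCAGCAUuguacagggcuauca

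miR-15a-5p: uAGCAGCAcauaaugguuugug

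miR-16-5p (from Mir16-1 and from Mir16-2): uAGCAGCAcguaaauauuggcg

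miR-195a-5p: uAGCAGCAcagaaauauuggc

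The list for the miR-15/16 family had 11 symbols, of which 10 were in the tables, 8 were detected and Mir497b had 0 counts. Its sums in replicates 1 and 2 were 4240 and 6137 CPM, against 4300 and 1032 CPM for the miR-103/107 family. The sums of the families were thus close in replicate 1, and that of miR-103/107 was the lower in replicate 2. Of its 8 tested genes, Mir195a and Mir497 were called higher in replicate 2 and Mir15a lower, beside 113 called higher and 91 lower of all 401 detected genes. Mir195a had 1259 and 3055 CPM, Mir497 967 and 1143 CPM, and Mir15a 524 and 448 CPM. The median log2 difference of the list was -0.03, beside 0.03 over all detected genes. Mir322 (839 and 847 CPM), Mir15b (188 and 172 CPM), Mir16-1 (382 and 393 CPM), Mir16-2 (70.2 and 69.1 CPM) and Mir503 (10.3 and 10.3 CPM) did not pass, at adjusted exact binomial p between 0.172 and 1. Counts of Mir497 rest on the same-strand column, since Mir497b lies opposite it. Mir195b had 1 count in each library.

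Other families also have copies inside introns of host genes. The miR-26 genes lie, in the host transcripts used, in introns of Ctdspl (Mir26a-1), Ctdsp2 (Mir26a-2) and Ctdsp1 (Mir26b), which encode small phosphatases. Mir26a-2 overlaps an exon in 2 of 4 annotated transcripts of Ctdsp2, unlike the members in their hosts. In that family too 1 gene has a guide strand of its own. The Mir128 genes, known for neuronal expression, lie in R3hdm1 (Mir128-1) and Arpp21 (Mir128-2) and give the same guide strand. Their guide strands are shown to compare what is shared.

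miR-26a-5p (from Mir26a-1 and from Mir26a-2): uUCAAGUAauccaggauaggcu

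miR-26b-5p: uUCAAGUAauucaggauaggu

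miR-128-3p (from Mir128-1 and from Mir128-2): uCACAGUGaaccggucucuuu

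Mir26b had 4999 and 14634 CPM, whereas Mir26a-1 had 5.60 and 41.3 CPM and Mir26a-2 had 16.4 and 22.8 CPM. The ratio of Mir26b to Mir26a-2 was 306 in replicate 1 and 641 in replicate 2, and that to Mir26a-1 was 893 and 354. In both families the gene with a guide strand of its own held most of the placed reads, and each gene with a shared guide strand was at 41.3 CPM or less in both libraries. The Mir128 genes did not follow this pattern. Mir128-1 had 4518 and 16906 CPM and Mir128-2 had 1113 and 3034 CPM, although miR-128-3p is held whole by both. Nor did Mir16-1 and Mir16-2, which share miR-16-5p and had means of 387 and 69.7 CPM.

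The exact runs shared by the copies differed in length. They were 27 nt for the Mir103 genes, 25 nt for the Mir26a genes and 23 nt each for the Mir128 genes and the Mir16 genes. The corresponding mature forms have 23, 22, 21 and 22 nt. The longest shared run of Mir107, 24 nt, holds no whole mature form. Among copies with a shared guide strand, the 4 genes with a run of 25 or 27 nt had lower levels than the 4 with a run of 23 nt, a description of 8 genes that form 4 pairs. The part of multimapping in the levels was not tested.

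**Figure D4:**
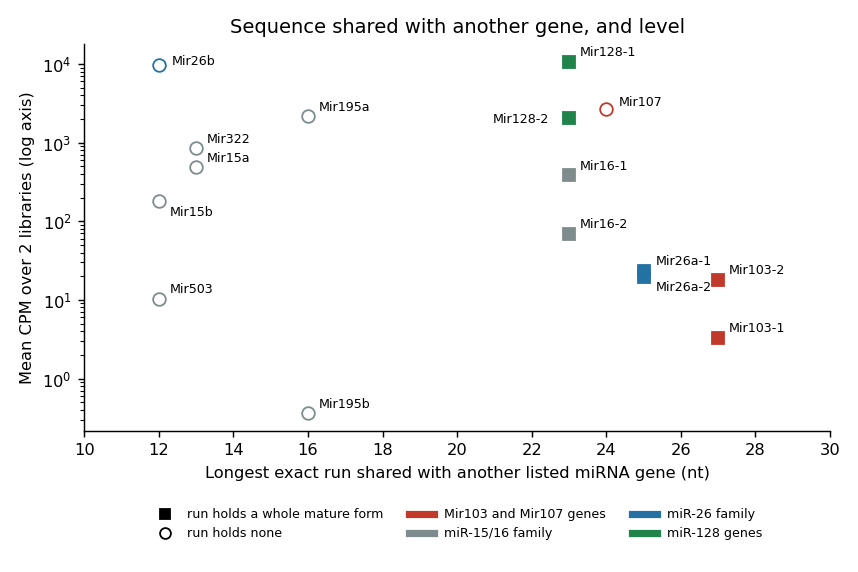
Mean CPM on a log axis against the longest exact run (nt) that each gene shares with any other listed miRNA gene, in squares where the run holds a whole mature form and in open circles where it does not. Mir497 and Mir497b, which lie on opposite strands of the same DNA, are left out. The Mir103 genes, at 27 nt, have means of 17.97 and 3.31 CPM, and Mir107, at 24 nt, has 2645 CPM.

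In the miR-26 and Mir128 genes the calls between libraries went the other way. Of the miR-26 genes, 2 of 3 were called higher in replicate 2 and none lower, with Mir26b 2.88-fold (2.82 to 2.94) and Mir26a-1 7.25-fold (4.11 to 14.0) higher. Mir26a-2 was 1.37-fold higher (0.92 to 2.08) and did not pass (adjusted exact binomial p = 0.217). Both Mir128 genes were called higher, at 3.68-fold (3.60 to 3.76) and 2.68-fold (2.57 to 2.80). The miR-103/107 genes that were tested, 2 of 3, were both called lower. Over all detected genes 113 were called higher in replicate 2 and 91 lower. These are differences between 2 samples of the same kind, and no test of the difference between families was made.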

How the data were processed

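Small RNA below 30 nt was sequenced from 2 samples, both in 1 group, labelled biological replicates 1 and 2. The values deposited by the authors were whole-number counts of reads per miRNA gene, in 1 table per library with an unstranded, a same-strand and an opposite-strand column. The assembly was mm10 and the annotation GENCODE M21, per the deposited sample descriptions; the aligner, counting program and settings, not given in the sources used here, decide which reads of near-identical copies were counted. The 4 rows that name no gene (unmapped, multimapping, no feature and ambiguous: 16.2%, 42.6%, 5.16% and 0% of reads in replicate 1, 15.1%, 46.0%, 4.70% and 0% in replicate 2) were kept out of totals and tests.

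Same-strand counts were scaled to 1000000 per library. Library sizes for the exact binomial test used TMM factors of 0.991 and 1.01 (edgeR 4.0.16, R 4.3.3), and log2 differences added 0.5 to each count. Intervals (Wilson, or exact for ratios) cover counting error only. They also treat every read as independent, although no molecular identifiers mark which reads are copies. The gene counts of the tables differed (chi-square 132901, 714 df), so each was taken as a library of its own. On simulated counts for the comparison of the 2 libraries (401 genes), the test called 97.0% of genes changed 4-fold, 80.3% at 2-fold, 59.7% at 1.5-fold and 3.48% of unchanged genes. The simulated counts varied by counting error only and were tested on library totals without TMM. The 3.48% is therefore not an error rate for the calls between the real libraries, where 50.9% of detected genes passed. Sequences came from RefSeq tables (GRCm38.p6), and shared runs from GENCODE M21 transcripts, on either strand, over all 2202 genes.

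The genes named were the members, the genes of the miR-15/16, miR-26 and miR-128 lists, and for each member the 3 genes nearest to it by log2 CPM whose mean is at least 100 CPM; the cell type markers were listed with them. Mir497a, on the miR-15/16 list, matched no symbol. The members and lists were chosen with earlier results of these data known. Alternatives were the unstranded column, other denominators and size factors (DESeq2 1.42.0), other filters and pseudocounts, and each library alone.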

Additional observations from a re-analysis of the deposited data

How the results depend on the processing

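Shares and ratios within a library do not change with scaling, and with 2 libraries a single library always lies within 1 SD of their mean, so these values are no check of stability. The mean level of Mir103-2 was 6.38 when scaled to 1000000 of all reads and 32.1 CPM when the 5 most abundant genes were left out of the total, both scalings that move every gene of a library alike. Of the miR-26 genes, 1 was called in place of 2 at 10 CPM in both libraries, a filter that removes Mir26a-1. With a floor of 2 CPM in both libraries, chosen after seeing the data, the gene nearest to Mir103-2 was Mir194-2 (distance 0.42) and that nearest to Mir103-1 was Mir6962 (distance 1.82). Mir107 stayed lower in replicate 2 by a log2 difference between -2.14 and -2.06 under the 7 alternatives, and Mir103-2 by one between -1.34 and -1.26, with an adjusted exact binomial p of at most 1.05e-04. Counts of called genes ranged from 184 to 210, but the number of genes tested changed with the filter. With no filter 210 of 715 were called, and at 10 CPM in both libraries 197 of 299, against 204 of 401 in the main setting. The share of genes called therefore depends on the filter. In single libraries, Mir107 was between 1021 and 4269 CPM and the log2 ratio of Mir103-2 to Mir103-1 between 2.08 and 4.17. Leaving out a library leaves nothing to compare it with, so the difference between replicates could not be recomputed that way. Depth limits Mir103-1 most, at 14 and 2 counts.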
